A study of Mus musculus with 14 samples.

Results

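Pressure overload of the left ventricle was examined in wild-type mice by comparing 4 arrays made 3 days after transverse aortic constriction (TAC) with 3 arrays of the basal condition, which had no pressure overload. These 7 wild-type arrays were chosen by their sample titles and are part of a series of 14. The other arrays, 3 basal and 4 TAC, came from mice lacking Hsp22, the small heat shock protein encoded by Hspb8. All mice were male C57BL/6, all tissue was left ventricle, and no age was given in the labels. After a filter on low values 12260 annotated genes were tested, and all of them belong to the comparison described here.

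In TAC a ligature narrows the aortic arch, and the left ventricle must then eject against a raised pressure. In the first days afterwards cardiac muscle cells enlarge, which calls for synthesis of protein, membrane, nucleotides and cytoskeleton, while leukocytes enter the tissue and fibroblasts are activated. The failing or enlarging heart is also known for lowering its use of fatty acids and for altering calcium handling and adrenergic signalling.

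Each value is a log2 expression level of 1 probe set, so levels are compared between arrays and not between genes. No sham-operated group was part of the series, and the array names given in the labels place all basal arrays in 1 run and all TAC arrays in another. Surgery, pressure overload and array run therefore cannot be told apart anywhere below. The labels do not state that the arrays came from separate animals, so each p-value measures the spread between samples, which may be partly technical. That spread was estimated per gene over all 14 arrays, the knockout arrays included, and not over the 7 wild-type arrays alone. With the wild-type arrays fitted alone 4831 genes were called, against 6214 in the main fit.

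The basal wild-type arrays were alike, with Pearson correlations over the 12260 genes tested of 0.983 to 0.987, whereas the TAC wild-type arrays ranged from 0.918, between TAC arrays 1 and 3, to 0.986. On the first principal component of the wild-type arrays the basal arrays lay between -42.3 and -38.4, and TAC arrays 1 to 4 lay at -1.19, 14.9, 65.7 and 41.4. TAC array 3 thus stood farthest from the basal arrays and TAC array 1 closest. Over the called genes the median size of the difference from the basal mean was 0.463, 0.553, 0.813 and 0.683 in TAC arrays 1 to 4. For genes chosen by the naming rule given at the end, a call that was lost without 1 wild-type array is stated as lost. Counts over 3 of called list members that changed by more than 1.5 times without 1 wild-type array are given with the value without it. Hspb8 itself read 9.66, 9.67 and 10.01 in the basal and 9.16, 9.03, 8.79 and 9.32 in the TAC wild-type arrays. In the knockout arrays it read 8.42 to 8.84 in the basal condition and 8.2 to 8.73 after TAC, so TAC wild-type array 3 lay within the basal knockout range. Where its probe set lies relative to the deleted part is not known here.

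The labelled tissue was checked against defining markers. Of 20 ventricular cardiomyocyte markers, 2 were higher, 1 was lower and 17 did not pass the test, and the higher count was 1 or 2 and the lower 0 to 2 when single arrays were left out. Myl2, the ventricular regulatory light chain, read 14.72, 14.76 and 14.71 in the basal and 14.75, 14.8, 14.4 and 14.68 in the TAC arrays. The mean level of these 20 markers was 14.01, 13.99 and 13.99 in the basal arrays and 14.07, 14.09, 13.57 and 13.88 in TAC arrays 1 to 4, so it was lowest in TAC array 3. The atrial genes Myl7, Myl4 and Sln, described below with Bmp10, had means of 12.98, 12.45 and 11.77 in the basal arrays. In the TAC arrays their means were 9.95, 9.53 and 7.97, and Myl7 spanned 7.07 over these arrays. The part of atrial tissue in the samples was not tested. The T cell genes Cd3d and Cd3g, the B cell genes Cd79a and Ms4a1, and the mast cell genes Cpa3 and Mcpt4 were not above the filter or not annotated.

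Of the 12260 genes, 3298 (26.9%) were higher and 2916 (23.8%) lower after TAC at an adjusted p under 0.05 in limma's test, which together is 50.7%. Because so many genes passed, a gene list was read against these shares. The TAC and basal arrays did not overlap for 49.9% of genes, with TAC higher for 25.5% and lower for 24.3%. With a further requirement of a 1.5-fold difference 2219 genes (18.1%) were higher and 1302 (10.6%) lower. The median log2 difference over all genes was 0.02 as deposited, -0.10 after quantile normalization and 0.10 after median centring, and the 3 scalings put 53.1%, 41.1% and 62.8% of the calls on the higher side. Gene lists were given as the number of measured members that passed in each direction and as the median log2 difference of all measured members, called or not. The alternatives named beside a list median are the 2 other scalings, the wild-type arrays fitted alone, array weights, a replicate block and each wild-type array left out. Medians within 0.15 of 0 changed by more than 1.5 times, and several in sign, without single arrays, and their range shows by how much. Counts of 3 or fewer moved by at most 2 when 1 wild-type array was left out. Mean differences are followed by their standard error (SE), with 3 basal and 4 TAC arrays. Where the mean of the lower group lay below the filter level of 5.75, signal may be background and the fold is a lower bound.

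**Figure D1:**
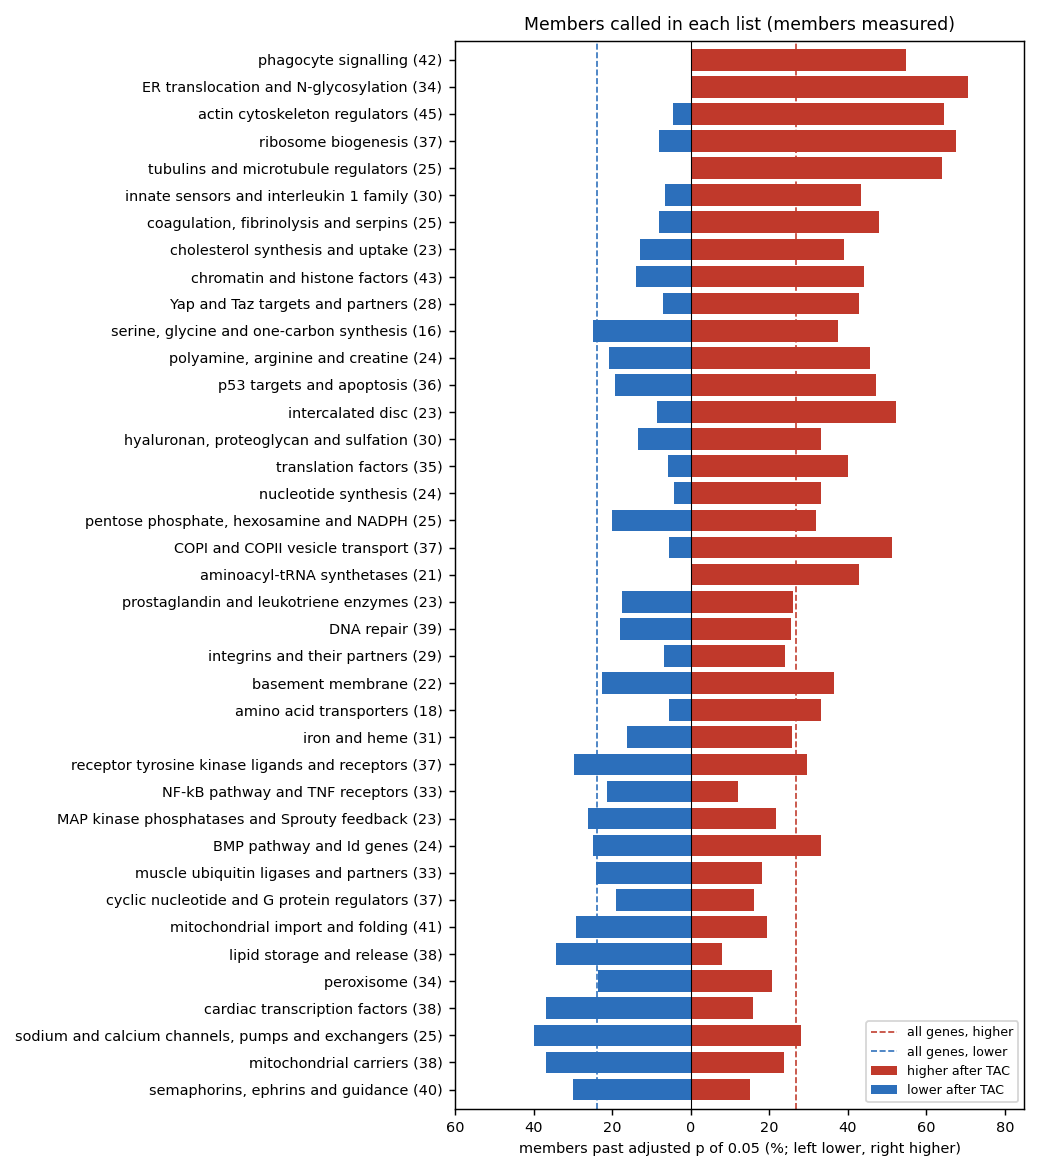
Share of measured members of 39 gene lists that passed an adjusted p of 0.05 in wild-type TAC against basal arrays (%, horizontal axis), with members lower after TAC drawn to the left and higher to the right. Dashed lines mark the shares over all genes, 23.8% lower and 26.9% higher. Lists are ordered by median log2 difference, and the ER translocation list has the longest bar to the right, with 70.6% of members higher.

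Genes below the very largest changes were examined first, at places 13 to 24 by size in each direction among genes that passed and whose arrays did not overlap. Gas2l3, which links actin to microtubules, read 4.76, 4.97 and 5.21 in the basal arrays and 7.26, 8.17, 8.44 and 8.07 in the TAC arrays. The TAC arrays lay together above the basal ones, and the difference of 3.00 ± 0.25 was at least 8.03-fold (adjusted p 1.23e-05). Ccl12, a chemokine for monocytes, rose from 5.78, 6.5 and 6.39 to 7.88, 9.47, 10.35 and 9.48 (8.41-fold, adjusted p 0.000158). Zfp697, a zinc finger gene, rose from 6.32, 6.28 and 6.46 to 8.46, 8.83, 9.49 and 10.08 (7.27-fold, adjusted p 0.00021). Ltbp2, a microfibril-associated matrix protein, rose by 2.79 ± 0.48, at least 6.93-fold (adjusted p 0.000661). In the other direction Ddit4, an inhibitor of mTORC1 signalling, fell from 11.67, 11.83 and 11.89 in the basal arrays to 10.22, 9.27, 9.67 and 9.76 in the TAC arrays, 4.19-fold lower (adjusted p 0.000201). Tbc1d10c fell 4-fold (adjusted p 0.000138) and Rtn2, a reticulon of the ER membrane, fell 4.16-fold (adjusted p 0.00135), with no basal array inside the TAC range for either gene.

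Genes that supply and build ribosomes and translate mRNA were next. Aminoacyl-tRNA synthetases charge tRNAs with amino acids. Of 21 measured, 9 were higher and none lower, with a median of 0.25 (0.08 to 0.33 over the alternatives), while 3 were lower after quantile normalization. Hars, for histidine, read 8.07, 7.74 and 7.99 in the basal arrays and 9.27, 9.4, 10.35 and 10.3 in the TAC arrays. All TAC arrays lay above all basal arrays, with TAC arrays 3 and 4 about 1 unit above the other two, and the rise was 1.90 ± 0.31 or 3.72-fold (adjusted p 0.000494). Gars, for glycine, went from 9.1, 9.02 and 9.11 to 9.68, 9.79, 10.48 and 10.23, a rise of 1.96-fold (adjusted p 0.00125).

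The amino acid response element, bound by ATF4 with its partners, was searched as TGATGNAA on both strands in RefSeq promoter windows (GRCm38.p6) of 300 bases, from 250 before to 50 after the start site. It occurred in 5 of 14 synthetase genes with a window (35.7%), Aars, Gars, Iars, Tars and Yars, against 4.51% of 27025 genes. Gars, Iars and Tars were among the synthetases that rose. It occurred in 2 of 11 amino acid transporters, neither of them called, and 0 of 15 serine and one-carbon genes with a window. A match is a description of the letters and not of binding. The stretches upstream of the start site that hold it are shown for Gars (chr6:55037951-55037998, plus strand) and Tars (chr15:11399659-11399693, minus strand), with the match in capitals, which here lies on the opposite strand to the spelling above.
Gars: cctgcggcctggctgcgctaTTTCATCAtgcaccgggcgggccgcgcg
Tars: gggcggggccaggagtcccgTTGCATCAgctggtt

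Serine, glycine and one-carbon synthesis split, with 6 of 16 genes higher and 4 lower. Psat1, the transaminase of serine synthesis, read 4.9, 4.74 and 4.85 in the basal and 6.67, 6.9, 8.75 and 8.53 in the TAC arrays. Its basal signal lay below the filter level, and the rise was at least 7.37-fold (adjusted p 0.000679). Phgdh, the enzyme before it in the same pathway, went the other way, from 8.2, 8.4 and 8.37 to 7.83, 7.91, 7.98 and 7.88 (-0.42 ± 0.12, adjusted p 0.0116), but not with the mean of its probe sets. Among 18 amino acid transporters 6 were higher and 1 lower, with 3 higher without basal array 3. Slc38a1, a glutamine transporter, rose 2.18-fold (adjusted p 0.00859), whereas Slc38a3, another of the same family, fell 2.11-fold from 9.73, 9.83 and 9.59 to 9.0, 9.11, 8.12 and 8.32 (adjusted p 0.00186).

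Nucleotide synthesis had 8 of 24 genes higher and 1 lower (median 0.31, 0.13 to 0.39 over the alternatives). Uck2, which salvages uridine and cytidine, read 8.56, 8.59 and 8.54 in the basal arrays and 10.15, 10.36, 11.45 and 11.3 in the TAC arrays. That rise was 2.25 ± 0.31 or 4.76-fold (adjusted p 0.000204). Ctps, which makes CTP, rose 3.18-fold (adjusted p 0.000525). The muscle form of adenylosuccinate synthase, Adssl1, was the member that fell, from 11.06, 10.91 and 10.93 to 10.6, 10.52, 9.7 and 10.19 (-0.71 ± 0.17, adjusted p 0.00484). Rrm2, a subunit of ribonucleotide reductase used in DNA replication, read 4.62, 4.83 and 4.55 in the basal and 5.01, 6.26, 9.14 and 8.0 in the TAC arrays. Its rise was graded over the TAC arrays, 2.44 over all of them, 3.13 without TAC array 1 and 1.76 without TAC array 3 (adjusted p 0.0135). The call was lost with the wild-type arrays fitted alone and without probe sets of the classes that can cross-hybridise.

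Ribosome biogenesis, the making of rRNA and its assembly with protein in the nucleolus, had 25 of 37 genes higher (67.6%) and 3 lower, with a median of 0.66 (0.47 to 0.75 over the alternatives). Npm1, a nucleolar chaperone, read 10.41, 10.18 and 10.28 in the basal arrays and 11.2, 11.23, 12.11 and 11.81 in the TAC arrays, 2.46-fold higher (adjusted p 0.000298). Nhp2, of the snoRNPs that modify rRNA, rose 2.61-fold (adjusted p 0.00499), and Nop58, of the other snoRNP class, at least 3.33-fold (adjusted p 0.0016). All TAC arrays of these genes lay above all basal arrays. Ubtf, a factor for transcription of rRNA genes by RNA polymerase I, fell from 9.74, 9.63 and 9.43 to 9.14, 9.35, 9.2 and 9.15 (-0.39 ± 0.10, adjusted p 0.00513). Translation factors had 14 of 35 higher and 2 lower (median 0.31, 0.14 to 0.39 over the alternatives). After quantile normalization 10 were higher and 5 lower, and 9 were higher with the wild-type arrays fitted alone. Eef1e1, a scaffold of the multi-synthetase complex, rose 2.86-fold (adjusted p 0.000231), while Eef1a2, the elongation factor form of muscle and nerve, fell from 13.47, 13.49 and 13.43 to 12.96, 12.99, 12.64 and 12.76 (-0.63 ± 0.10, adjusted p 0.000467).

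Proteins for secretion or for membranes enter the ER through the Sec61 channel, are freed of their signal peptide and receive N-linked sugars. Of 34 genes for these steps 24 were higher (70.6%) and none lower (1 was lower after quantile normalization), with a median of 0.73 (0.54 to 0.88 over the alternatives). Stt3a, a catalytic subunit of the oligosaccharyltransferase, read 7.95, 8.38 and 8.0 in the basal arrays and 9.24, 9.71, 11.15 and 10.71 in the TAC arrays. The lowest TAC array was clear of the highest basal array, and the rise was 2.09 ± 0.36, 4.26-fold (adjusted p 0.000719). Spcs3, of the signal peptidase, rose from 9.56, 9.48 and 9.65 to 10.4, 10.79, 12.08 and 11.38 (3.03-fold, adjusted p 0.00136), and Ssr1, of the translocon-associated complex, 2.43-fold (adjusted p 0.00183).

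Coat proteins and cargo receptors of COPI and COPII vesicles, which carry cargo between ER and Golgi, had 19 of 37 higher and 2 lower (median 0.28, 0.10 to 0.40 over the alternatives). The higher count was 12 without basal array 2, 12 with the wild-type arrays fitted alone and 12 after quantile normalization, which also put 7 members lower. Kdelr3, which returns ER proteins from the Golgi, rose from 6.76, 6.8 and 7.36 to 7.42, 8.33, 9.82 and 9.16 (3.27-fold, adjusted p 0.00442), and Arf4 rose 2.05-fold (adjusted p 0.00154). Lman2, a lectin cargo receptor, fell from 9.61, 9.68 and 9.72 to 9.01, 9.13, 9.45 and 8.91 (-0.55 ± 0.14, adjusted p 0.00588). The ER stress element was in the promoter window of 0 of 24 ER and 0 of 33 vesicle genes with a window, and in 0.137% of all genes.

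Cholesterol synthesis and uptake had 9 of 23 genes higher and 3 lower (median 0.46, 0.25 to 0.53 over the alternatives), with 5 higher without basal array 2 and 6 lower after quantile normalization. Msmo1, a sterol oxidase, rose from 7.22, 7.38 and 7.15 to 7.81, 7.95, 9.1 and 8.92 (2.29-fold, adjusted p 0.00702), and Insig1, the sterol-regulated brake of the pathway, rose 1.87-fold (adjusted p 0.00514). Tm7sf2, a sterol reductase, fell from 7.04, 7.32 and 7.3 to 6.64, 6.63, 6.6 and 6.49 (-0.63 ± 0.14, adjusted p 0.00245). The sterol element TCACNCCAC, searched on both strands, was in 1 of 19 windows of the list, that of Hmgcs1, and in 1.44% of all genes. Hmgcs1, which makes the precursor of mevalonate, read 9.72, 9.37 and 9.55 in the basal and 9.78, 10.1, 10.4 and 10.44 in the TAC arrays (adjusted p 0.0104), named here for its motif. Its upstream stretch is chr13:119690194-119690242 on the plus strand, with the element in capitals.
Hmgcs1: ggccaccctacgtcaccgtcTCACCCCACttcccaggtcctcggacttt

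**Figure D2:**
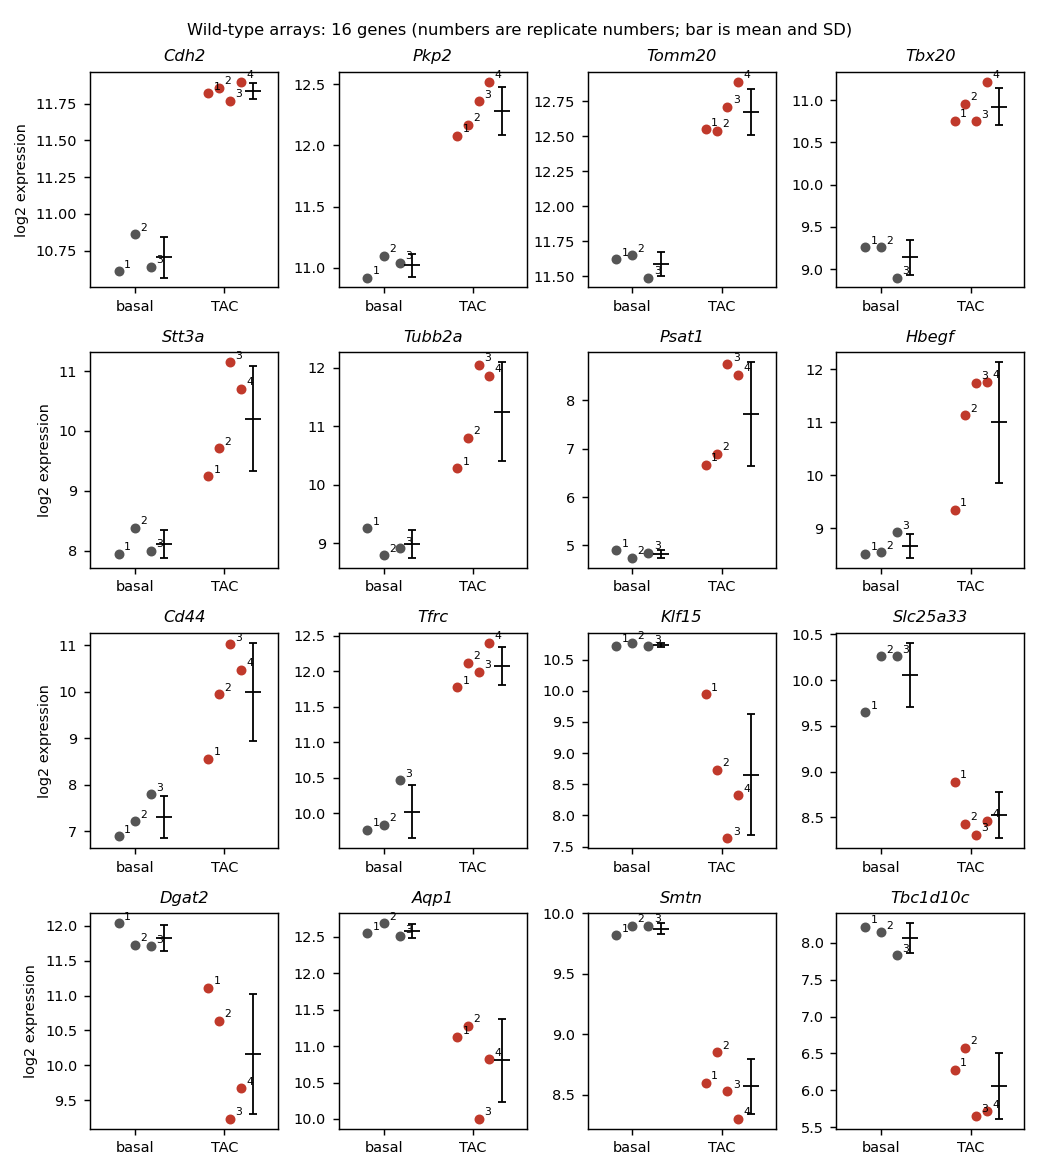
Log2 expression (vertical axis) of 16 genes in the 3 basal (grey) and 4 TAC (red) wild-type arrays, with replicate numbers beside the points and the mean and SD as a black bar. Cdh2 and Smtn are close together over the TAC arrays, while Stt3a, Klf15 and Dgat2 differ by more than 1 unit between TAC arrays 1 and 3.

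The cytoskeleton list with the most calls was that of actin regulators, 29 of 45 higher (64.4%) and 2 lower (median 0.68, 0.48 to 0.82 over the alternatives). Lcp1, which bundles actin in leukocytes, read 7.83, 7.94 and 8.02 in the basal arrays and 9.23, 10.04, 11.46 and 10.17 in the TAC arrays, 4.91-fold higher (adjusted p 0.000397). Coro1a, also a leukocyte gene, rose 4.22-fold (adjusted p 0.00131), with TAC array 3 at 10.23 against 7.75 to 8.59 in the others. Anln, a cytokinesis scaffold, had a difference of 2.60, 3.19 without TAC array 1 and 2.00 without TAC array 3 (adjusted p 0.00442). Gsn, which severs actin filaments, fell 2.21-fold (adjusted p 0.0137), a call that was lost with array weights. The mean level of the 42 phagocyte genes described below rose in the same arrays, from 6.66 to 6.76 in the basal arrays to 7.12, 7.49, 8.91 and 7.47 in TAC arrays 1 to 4, and its part in the leukocyte members of the actin list was not tested.

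The CArG box, bound by serum response factor and searched on both strands, was in 4 of 40 actin regulators with a window (10%) and in 1.81% of all genes. The holders were Actg1, Arpc4, Vcl and Cnn2, named for the motif, and 3 of them were higher. Vcl, the vinculin of adhesion sites, went from 11.02, 10.85 and 10.97 to 11.52, 11.55, 12.12 and 12.3 (1.9-fold, adjusted p 0.00273). Arpc4, of the Arp2/3 complex that branches actin, went from 8.83, 8.6 and 8.81 to 8.81, 9.11, 10.39 and 9.77 (adjusted p 0.0392), with TAC array 1 inside the basal range. The upstream stretches of Vcl (chr14:20929151-20929200) and Arpc4 (chr6:113377863-113377892), both on the plus strand, have the box in capitals.
Vcl: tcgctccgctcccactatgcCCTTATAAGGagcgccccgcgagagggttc
Arpc4: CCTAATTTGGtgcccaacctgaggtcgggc

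Tubulins and microtubule regulators had 16 of 25 higher and none lower (median 0.56, 0.38 to 0.63 over the alternatives). The higher count was 10 without basal array 3 and 10 without TAC array 4, and after quantile normalization 11 were higher and 3 lower. Tubb2a, a beta tubulin, read 9.25, 8.79 and 8.91 in the basal arrays and 10.28, 10.8, 12.05 and 11.86 in the TAC arrays. Its groups did not overlap, and the rise was 2.26 ± 0.38 or 4.8-fold (adjusted p 0.000576). Tubb6 rose 3.27-fold (adjusted p 0.00578). Tubulin genes are close in sequence, so probe sets may share signal between them.

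At the intercalated disc, where cardiomyocytes are joined, 12 of 23 genes were higher and 2 lower (median 0.33, 0.15 to 0.41 over the alternatives). The higher count was 7 without basal array 2, 7 without TAC array 4 and 8 after quantile normalization. Cdh2, the N-cadherin of adherens junctions, read 10.61, 10.86 and 10.64 in the basal arrays and 11.82, 11.86, 11.77 and 11.9 in the TAC arrays. The TAC arrays agreed within 0.13, and the rise was 1.13 ± 0.11 or 2.19-fold (adjusted p 4.53e-05). Pkp2, a desmosomal plaque protein, rose from 10.92, 11.1 and 11.04 to 12.08, 12.17, 12.36 and 12.52 (2.4-fold, adjusted p 0.000147), on a probe set of the class that can cross-hybridise, and the call was lost when such probe sets were left out. Jup, the plakoglobin that binds both junction types, went down, from 9.84, 9.9 and 9.91 to 9.15, 9.08, 9.15 and 9.44 (-0.68 ± 0.11, adjusted p 0.000607). The list mean of the disc was not highest in TAC array 3, with differences of 0.37, 0.38, 0.21 and 0.54 in TAC arrays 1 to 4.

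Integrins and their partners had 7 of 29 higher and 2 lower, below the share of all genes, and the median of 0.16 (-0.01 to 0.24 over the alternatives) became -0.01 after quantile normalization, which put 6 members lower, and 0.11 without TAC array 3. Cd44, a hyaluronan receptor, nevertheless read 6.89, 7.21 and 7.79 in the basal arrays and 8.55, 9.94, 11.02 and 10.47 in the TAC arrays, a rise of 2.70 ± 0.44 or 6.49-fold (adjusted p 0.000522). Itgav, the alpha v integrin chain, rose 2.62-fold (adjusted p 0.000979) and Fermt3, the kindlin of blood cells, 4.59-fold (adjusted p 0.00144). Lims2, a partner of integrin-linked kinase, fell from 10.78, 10.66 and 10.92 to 10.19, 9.67, 9.07 and 9.44 (2.29-fold, adjusted p 0.000964). In the list of hyaluronan and proteoglycan genes 10 of 30 were higher, 18 without TAC array 1, and 4 lower, 2 without basal array 1 or with the wild-type arrays fitted alone. Chsy1, which polymerises chondroitin, rose from 7.09, 6.64 and 6.4 to 7.95, 8.52, 9.53 and 9.05 (4.15-fold, adjusted p 0.00028), and Dse, which turns chondroitin into dermatan, at least 3.82-fold (adjusted p 0.00129). Basement membrane genes had 8 of 22 higher (36.4%) and 5 lower (22.7%), against 26.9% and 23.8% of all genes, and 5 and 3 higher without basal arrays 1 and 2. Their median of 0.13 (-0.02 to 0.21 over the alternatives) became -0.02 after quantile normalization, with 4 higher and 8 lower, and 0.05 without basal array 1 or TAC array 3. With the wild-type arrays fitted alone 5 were higher. Lama5, a laminin alpha chain, fell from 9.42, 9.81 and 9.52 to 9.09, 8.89, 8.69 and 8.61 (-0.76 ± 0.16, adjusted p 0.00229).

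Growth factor ligands and their receptor tyrosine kinases were called in both directions at nearly the shares of all genes, 11 of 37 higher and 11 lower. The median of 0.06 (-0.06 to 0.14 over the alternatives) became -0.06 after quantile normalization, and 7 members were lower with the wild-type arrays fitted alone. Among ligands, Hbegf, an EGF family member, read 8.52, 8.54 and 8.92 in the basal arrays and 9.35, 11.13, 11.74 and 11.77 in the TAC arrays. TAC array 1 was the lowest of the TAC arrays yet above all basal ones, and the rise was 5.05-fold (adjusted p 0.00346). Egf itself fell from 6.52, 6.46 and 6.56 to 6.06, 5.38, 5.04 and 5.55, at least 2.01-fold (adjusted p 0.00434), and Igf2 fell 2.4-fold (adjusted p 0.00115). Among receptors, Pdgfrb rose from 8.96, 9.06 and 9.04 to 10.23, 10.32, 11.16 and 10.58 (2.93-fold, adjusted p 0.000139) and Met, the receptor of hepatocyte growth factor, at least 2.64-fold (adjusted p 0.000114). Igfbp6, which binds and holds back IGF2, fell 2.1-fold (adjusted p 0.00138).

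The BMP pathway also split, 8 of 24 higher and 6 lower, with a median of 0.00 (-0.13 to 0.08 over the alternatives) that became -0.13 after quantile normalization and 0.08 after median centring. Bmp4, a ligand, fell from 8.02, 8.12 and 7.6 to 7.01, 7.07, 6.85 and 7.14 (-0.90 ± 0.18, adjusted p 0.00161). Smad1, which carries the signal to the nucleus, rose from 7.95, 7.6 and 7.76 to 8.69, 9.58, 9.65 and 9.37 (2.93-fold, adjusted p 0.000132), and Smad6, an inhibitor in the cell, fell, with a difference of -0.76 (adjusted p 0.0155). Fstl1, a secreted follistatin-like protein, read 9.93, 9.75 and 9.98 in the basal arrays and 10.83, 11.75, 12.56 and 12.23 in the TAC arrays, 3.88-fold higher (adjusted p 0.00044). Bmp10, a ligand made in atrial muscle, read 7.38, 7.76 and 7.32 in the basal and 6.19, 6.19, 6.25 and 5.84 in the TAC arrays (adjusted p 0.0128), a call that was lost without basal array 2. The atrial genes Myl7 and Myl4 read 12.75, 12.94 and 13.25 and 12.39, 12.36 and 12.61 in the basal arrays. In the TAC arrays they read 10.96, 12.31, 11.28 and 5.24 and 10.16, 11.58, 10.35 and 6.03, with adjusted p of 0.143 and 0.0722. Sln, another atrial gene, passed with a difference of -3.80 (adjusted p 0.0451 in limma's test). Sln kept that call without TAC array 2, but not when any other single wild-type array was dropped. Median centring, array weights and the replicate block also removed it. For Myl7, Myl4 and Sln the highest TAC array lay 0.44, 0.78 and 0.98 below the lowest basal array. Myl7 spanned 7.07 over the TAC arrays and was lowest in TAC array 4, as was Bmp10. The part of atrial signal in the Bmp10 value was not tested.

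Yap and Taz are co-activators that respond to cell tension, and 12 of 28 of their targets and partners were higher and 2 lower (median 0.37, 0.19 to 0.45 over the alternatives). After quantile normalization the counts were 10 higher and 6 lower. Amot, which holds Yap at junctions, read 7.39, 6.99 and 6.98 in the basal arrays and 9.17, 9.1, 8.43 and 9.39 in the TAC arrays, 3.74-fold higher (adjusted p 6.02e-05). Mob1b and Stk4, of the kinase cascade that restrains Yap, rose 3.24-fold and 3.02-fold (adjusted p 0.000576 and 0.000129). The 3 members with the largest rise by the naming rule thus were regulators or partners of Yap and not its targets. Among MAP kinase phosphatases and Sprouty genes 5 of 23 were higher (21.7%) and 6 lower (26.1%), near the shares of all genes. There were 2 and 3 lower without basal arrays 2 and 3. The median of 0.02 (-0.17 to 0.12 over the alternatives) became -0.17 after quantile normalization. Dusp6, the phosphatase induced by and acting on ERK, rose from 8.32, 8.19 and 8.43 to 9.05, 9.42, 9.79 and 9.19 (2.07-fold, adjusted p 0.000595).

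Genes of cyclic nucleotide and G protein signalling had 6 of 37 higher (16.2%) and 7 lower (18.9%), the latter 4 without basal array 2. Adcy7, an adenylyl cyclase abundant in blood cells, read 6.89, 5.69 and 5.94 in the basal arrays and 7.85, 8.63, 9.56 and 8.99 in the TAC arrays, 6-fold higher (adjusted p 0.000134). Of the cardiac cyclases, Adcy6 fell from 10.28, 10.25 and 10.13 to 9.95, 9.71, 9.05 and 9.49 (-0.67 ± 0.16, adjusted p 0.00452). Adcy5 had a difference of -0.63 ± 0.10 (adjusted p 0.000497) on a probe set of the class that can cross-hybridise, and its call too was lost without such probe sets. Grk5, a kinase that desensitises adrenergic receptors, rose from 8.97, 9.13 and 9.18 to 10.02, 10.07, 10.81 and 10.52 (2.4-fold, adjusted p 0.00421), and Pde4a, which degrades cAMP, fell, with a difference of -0.82 (adjusted p 0.00287).

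Channels, pumps and exchangers for sodium and calcium had 7 of 25 higher and 10 lower (median -0.21, -0.39 to -0.10 over the alternatives), the latter 6 without basal array 2 and 6 without basal array 3. Slc8a1, the sodium-calcium exchanger, read 8.2, 8.56 and 8.06 in the basal arrays and 9.08, 9.01, 9.76 and 10.31 in the TAC arrays, 2.41-fold higher (adjusted p 0.0103). Atp1b1, the beta chain of the sodium pump, rose from 12.3, 12.14 and 12.13 to 12.98, 12.96, 13.35 and 13.4 (1.98-fold, adjusted p 0.000722). Slc4a3, a chloride-bicarbonate exchanger, fell from 11.24, 11.43 and 11.17 to 10.47, 10.23, 8.96 and 9.61 (2.76-fold, adjusted p 0.0012). The T-type calcium channel Cacna1g fell 2-fold (adjusted p 0.00294) and the calcium channel gamma subunit gene Cacng7 2.02-fold (adjusted p 0.000289). Ryr2, the calcium release channel, was not called on the probe set used, with 12.67, 12.54 and 12.39 in the basal and 12.84, 12.83, 12.05 and 12.47 in the TAC arrays (adjusted p 0.948), while the difference was -0.55 with the mean of its probe sets (adjusted p 0.0315), so its direction depended on the probe sets used.

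Cardiac transcription factors had 6 of 38 higher (15.8%) and 14 lower (36.8%), the latter 9 without basal array 3 and 9 with the wild-type arrays fitted alone, and the median of -0.20 (-0.29 to -0.08 over the alternatives) was -0.08 without TAC array 3 and -0.13 without basal array 3. With array weights 10 were higher. Tbx20, a T-box factor of heart muscle, read 9.26, 9.26 and 8.9 in the basal arrays and 10.76, 10.96, 10.75 and 11.22 in the TAC arrays. It rose by 1.78 ± 0.19 or 3.44-fold (adjusted p 6.78e-05), with all TAC arrays at least 1.49 above the highest basal array. Nkx2-5, a homeobox factor of the same cells, fell from 10.18, 10.22 and 10.05 to 9.44, 9.28, 9.26 and 9.47 (-0.79 ± 0.12, adjusted p 0.000331). Klf15, a repressor of hypertrophic growth and activator of lipid and amino acid catabolism, fell from 10.72, 10.77 and 10.71 to 9.94, 8.73, 7.63 and 8.32, 4.22-fold (adjusted p 0.00153). Guidance genes, the semaphorins, ephrins and their receptors, had 6 of 40 higher and 12 lower (median -0.23, -0.27 to -0.15 over the alternatives, -0.15 without basal array 3 or TAC array 3). Nrp1, a receptor for semaphorins and VEGF, rose 2.19-fold (adjusted p 0.000123), while Ephb4, a receptor of venous endothelium, fell from 8.95, 9.01 and 8.87 to 8.01, 8.13, 7.41 and 7.76 (2.17-fold, adjusted p 0.000141) and Epha4 fell 2.83-fold (adjusted p 0.00905).

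Genes of phagocyte signalling were higher after TAC, with the highest list mean in TAC array 3. Of 42 genes of phagocyte signalling 23 were higher (54.8%) and none lower, with a median of 0.97 (0.56 to 1.14 over the alternatives) that was 0.56 without TAC array 3. The count was 22 without that array and 15 in a fit of the wild-type arrays alone. Evi2a, a membrane protein of blood cells, read 4.35, 4.93 and 4.73 in the basal arrays and 6.6, 6.92, 8.98 and 7.18 in the TAC arrays, at least 6.73-fold higher (adjusted p 0.000354). Ptprc, the pan-leukocyte antigen CD45, read 6.99, 6.43 and 6.4 in the basal arrays and 7.9, 8.75, 10.87 and 8.73 in the TAC arrays, a rise of 2.46 that was 1.85 without TAC array 3 (adjusted p 0.00164). Fcgr1, a high-affinity antibody receptor of macrophages, rose by 2.51, and by 1.79 without that array (adjusted p 0.00359). Of other defining macrophage markers, Cd68 rose by 2.37 (adjusted p 0.000299 in limma's test), while Csf1r, with a difference of 0.69, did not pass (adjusted p 0.0832). In whole tissue more leukocytes and more RNA per leukocyte cannot be told apart, nor can fewer cells of a type and less RNA per cell.

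Genes known from monocytes that enter the injured heart and genes of its resident macrophages were compared next. Of 19 recruited-cell genes 9 were higher and 3 lower, 1 without TAC array 4, and 5 were higher with the wild-type arrays fitted alone, with a median of 0.93 (0.67 to 1.24 over the alternatives). Chil3, a chitinase-like protein of monocytes, read 4.06, 4.17 and 3.91 in the basal arrays and 7.01, 6.76, 9.08 and 8.52 in the TAC arrays, at least 13.9-fold higher (adjusted p 0.000361). Of 17 resident-cell genes 7 were higher, 3 without basal array 2 and 3 after quantile normalization, and 3 lower, with a median of 0.32 (0.20 to 0.49 over the alternatives). Mrc1, the mannose receptor, rose from 8.43, 8.34 and 8.65 to 9.39, 9.65, 10.76 and 10.09 (2.83-fold, adjusted p 0.000588), and F13a1, the coagulation factor XIII A chain, 2.18-fold (adjusted p 0.00111). Retnla, a secreted product of alternatively activated macrophages, fell from 7.04, 7.21 and 7.99 to 5.46, 5.69, 5.13 and 5.28, at least 4.07-fold (adjusted p 0.000818). The mean difference of the recruited list over TAC arrays 1 to 4 was 0.37, 0.81, 2.46 and 1.05, and of the resident list 0.22, 0.32, 0.21 and 0.31. The resident list thus was not highest in TAC array 3.

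Innate sensors and interleukin 1 family genes had 13 of 30 higher, 7 without basal array 1 and 5 with the wild-type arrays fitted alone, and 2 lower, and the median of 0.56 (0.26 to 0.64 over the alternatives) was 0.26 without TAC array 3. Tlr13, an endosomal sensor of bacterial RNA, rose from 5.19, 5.65 and 5.77 to 6.23, 6.48, 8.68 and 7.26, at least 3.09-fold (adjusted p 0.00906). Tlr9, a sensor of DNA, fell from 7.28, 7.25 and 7.2 to 6.47, 6.39, 6.49 and 6.62 (-0.75 ± 0.15, adjusted p 0.0019). The NF-kB pathway and TNF receptors had 4 of 33 higher (12.1%) and 7 lower (21.2%), both under the shares of all genes. Without basal array 1 the count of higher genes was 1, and without basal array 2 it was 2 higher and 2 lower. The median of 0.04 (-0.05 to 0.11 over the alternatives) became -0.05 after quantile normalization. The counts were 2 higher with the wild-type arrays fitted alone, 7 higher with array weights and 3 lower after median centring. Tnfrsf12a, the receptor of TWEAK, read 10.6, 10.39 and 10.6 in the basal arrays and 11.59, 12.35, 12.37 and 12.56 in the TAC arrays, 3.22-fold higher (adjusted p 0.000191), while Tnf itself read 6.94, 7.03 and 6.58 and 6.47, 6.29, 6.21 and 6.19 (-0.56 ± 0.15, adjusted p 0.00907).

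Coagulation, fibrinolysis and serpin genes had 12 of 25 higher and 2 lower, 4 after quantile normalization (median 0.53, 0.39 to 0.76 over the alternatives). F2r, the thrombin receptor, rose from 9.7, 9.88 and 9.97 to 10.74, 10.99, 11.78 and 11.96 (2.86-fold, adjusted p 0.000869), and Vwf, the platelet adhesion factor made by endothelium, fell from 9.38, 9.59 and 9.19 to 8.9, 8.65, 8.08 and 8.69 (-0.81 ± 0.18, adjusted p 0.00332). Serpinb1a, an inhibitor of neutrophil proteases, ranged from 6.66 to 11.60 over the TAC arrays. Its difference of 2.77 was 3.51 without TAC array 1 and 1.86 without TAC array 3, and its call was lost without basal array 1 and with the wild-type arrays fitted alone. Prostaglandin and leukotriene enzymes were called at about the shares of all genes, 6 of 23 higher and 4 lower (median 0.20, 0.02 to 0.27 over the alternatives, 0.12 without basal array 2). Pla2g4a, the phospholipase that frees arachidonic acid, rose from 5.59, 5.33 and 5.23 to 6.43, 7.1, 8.3 and 7.62, at least 3.94-fold (adjusted p 0.000452). Pla2g5, a secreted phospholipase of heart, fell from 8.53, 7.93 and 8.4 to 6.9, 6.88, 5.18 and 5.16, 4.78-fold (adjusted p 0.00402), so the 2 phospholipases moved in opposite directions.

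**Figure D3:**
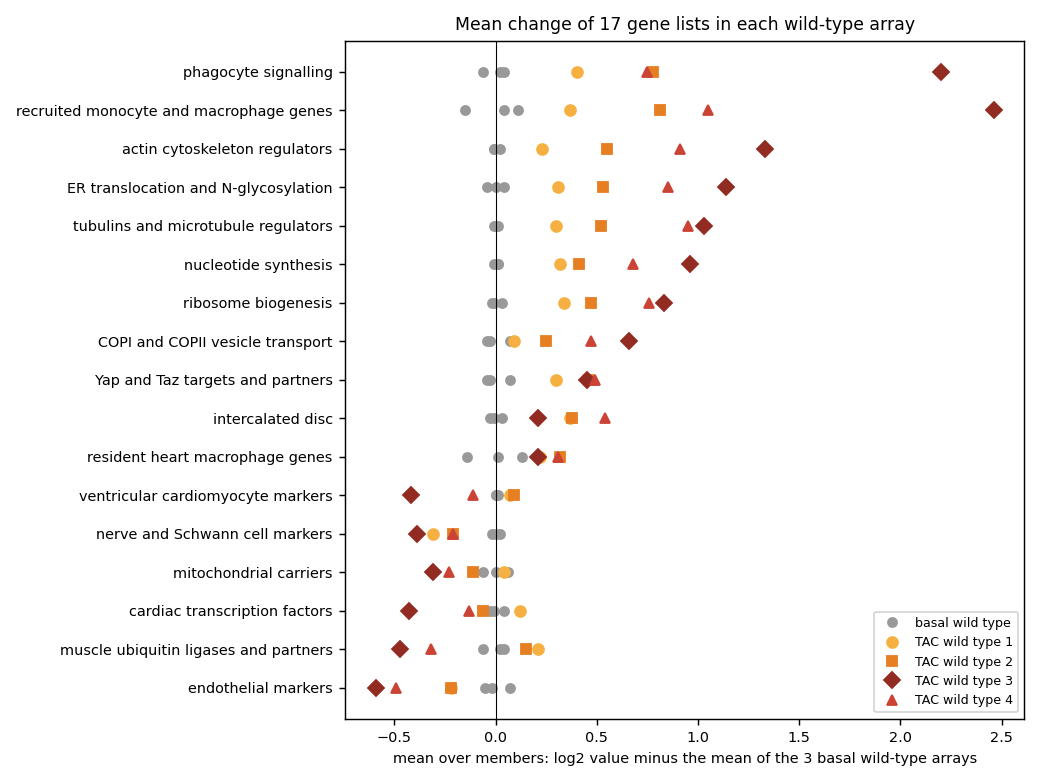
Mean over the members of 17 gene lists of the log2 value minus the basal wild-type mean (horizontal axis), for each of the 7 wild-type arrays. For phagocyte signalling TAC array 3 lies at 2.20 and the other TAC arrays between 0.40 and 0.78, while the intercalated disc and resident macrophage lists are not highest in TAC array 3 and the ventricular markers are lowest in it, at -0.42.

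Genes of lipid storage and release had 3 of 38 genes higher (7.89%) and 13 lower (34.2%), with a median of -0.13 (-0.25 to -0.05 over the alternatives), -0.22 without basal array 2 and -0.07 without basal array 3. The higher count was 5 after median centring and 7 with array weights. Dgat2, which makes triglyceride, read 12.04, 11.73 and 11.71 in the basal arrays and 11.11, 10.64, 9.23 and 9.67 in the TAC arrays. The highest TAC array was below the lowest basal array, and the fall was 3.17-fold (adjusted p 0.00239). Acacb, whose malonyl-CoA restrains fatty acid entry into mitochondria, fell from 10.99, 11.0 and 11.17 to 10.39, 10.08, 8.45 and 9.19 (2.88-fold, adjusted p 0.00391), and Lipe, the hormone-sensitive lipase, 2.5-fold (adjusted p 0.00128). Scd2, a fatty acid desaturase, rose from 7.7, 7.26 and 6.89 to 8.43, 8.6, 10.47 and 9.62 (3.99-fold, adjusted p 0.00135). Enzymes of synthesis and of breakdown were both among the members that fell. These falls were deepest in TAC array 3, which also had the lowest mean of ventricular markers, given above, and the part of that in these values was not tested.

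Peroxisomal genes had 7 of 34 higher and 8 lower, near the shares of all genes (median -0.18, -0.33 to -0.10 over the alternatives). The lower count depended on single arrays, 3 without TAC array 4, 4 without basal array 1, basal array 2 or TAC array 3, 5 without basal array 3, and 14 without TAC array 1. It was 13 after quantile normalization, 5 after median centring and 3 with the wild-type arrays fitted alone. Far1, which makes fatty alcohols for ether lipids, rose from 7.37, 7.33 and 7.43 to 8.41, 8.8, 9.9 and 9.59 (3.48-fold, adjusted p 0.000497). Crat, the carnitine acetyltransferase, fell from 11.26, 11.1 and 11.36 to 10.65, 10.45, 9.19 and 9.75 (2.35-fold, adjusted p 0.00251).

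Mitochondrial import and folding genes were called in both directions, 8 of 41 higher and 12 lower, with a median of -0.09 (-0.21 to -0.01 over the alternatives). The median was -0.03 without TAC array 3 and -0.04 without basal array 1 or TAC array 4. The balance of calls turned with the scaling, with 6 higher and 16 lower after quantile normalization and 12 higher and 8 lower after median centring, and 7 were lower with the wild-type arrays fitted alone. Among receptors of the outer membrane, Tomm20 read 11.62, 11.65 and 11.49 in the basal arrays and 12.55, 12.54, 12.71 and 12.89 in the TAC arrays, 2.12-fold higher (adjusted p 4.38e-05). Tomm70a rose from 9.24, 9.11 and 9.08 to 10.15, 10.26, 10.66 and 10.74 (2.48-fold, adjusted p 7.75e-05). In the matrix and inner membrane, the chaperone Trap1 fell from 10.86, 11.0 and 11.0 to 10.29, 10.29, 9.75 and 9.9 (-0.90 ± 0.15, adjusted p 0.000528), while the protease Yme1l1 rose by 0.98 ± 0.15 (adjusted p 0.000383).

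The carriers of the inner mitochondrial membrane had 9 of 38 higher and 14 lower (36.8%), the latter 9 without basal array 3 and 8 with the wild-type arrays fitted alone. Their median of -0.21 (-0.31 to -0.06 over the alternatives) was -0.06 without TAC array 3. Slc25a33, which carries pyrimidine nucleotides, read 9.65, 10.26 and 10.26 in the basal arrays and 8.89, 8.43, 8.31 and 8.46 in the TAC arrays, 2.9-fold lower (adjusted p 8.32e-05). Slc25a34, a carrier of unknown substrate, fell from 11.31, 11.06 and 11.56 to 10.64, 9.88, 8.51 and 9.05 (3.46-fold, adjusted p 0.00249). Slc25a30 rose from 7.75, 7.42 and 7.62 to 8.83, 8.63, 9.08 and 8.78 (2.35-fold, adjusted p 8.57e-05), and Slc25a24, which exchanges ATP-magnesium for phosphate, 2.56-fold (adjusted p 0.00289).

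The pentose phosphate, hexosamine and NADPH list had 8 of 25 higher and 5 lower, 3 without basal array 1, basal array 3 or TAC array 3, after median centring or with the wild-type arrays fitted alone. The median of 0.29 (0.11 to 0.37 over the alternatives) was 0.17 without TAC array 3 and 0.19 without basal array 1. Gfpt1, the entry enzyme of hexosamine synthesis, read 6.75, 7.05 and 6.74 in the basal arrays and 8.06, 8.28, 9.03 and 8.68 in the TAC arrays, 3.17-fold higher (adjusted p 6.95e-05). Pgm3, of the same pathway, rose 2.78-fold (adjusted p 0.00705). Polyamine, arginine and creatine genes had 11 of 24 higher, 7 without basal array 2 or TAC array 3, after quantile normalization or with the wild-type arrays fitted alone, and 5 lower, 3 without basal array 1. Azin1, which protects ornithine decarboxylase from its inhibitor, rose from 9.71, 9.76 and 9.86 to 10.71, 11.38, 11.53 and 11.56 (2.86-fold, adjusted p 9.68e-05). Ckm, the muscle creatine kinase, fell from 14.08, 13.87 and 13.97 to 13.33, 13.16, 11.86 and 12.18 (2.53-fold, adjusted p 0.00374).

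Iron and heme genes were called near the shares of all genes, 8 of 31 higher, 5 without TAC array 4 or with the wild-type arrays fitted alone, and 5 lower. After quantile normalization 5 were higher and 8 lower. The median of 0.11 (-0.03 to 0.25 over the alternatives) became -0.03 after quantile normalization and -0.02 without TAC array 3. Within this list the uptake receptor of transferrin, Tfrc, read 9.77, 9.84 and 10.46 in the basal arrays and 11.77, 12.12, 11.99 and 12.4 in the TAC arrays. All TAC arrays were at least 1.31 above the highest basal array, and the rise was 4.13-fold (adjusted p 0.000114). Aco1, the iron-responsive RNA-binding protein that stabilises Tfrc mRNA, rose from 8.62, 8.11 and 8.33 to 9.6, 9.61, 10.1 and 10.15 (2.85-fold, adjusted p 0.000173). Lcn2, which binds bacterial iron carriers, rose from 6.19, 6.6 and 6.77 to 9.98, 9.25, 9.1 and 10.43 (9-fold, adjusted p 6.02e-05).

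Muscle ubiquitin ligases and partners had 6 of 33 higher and 8 lower, and the median of -0.08 (-0.24 to 0.02 over the alternatives) became 0.00 after median centring and 0.02 without TAC array 3. The lower count was 3 or 4 without any one of basal arrays 1, 2 and 3 and TAC arrays 3 and 4, and 3 with the wild-type arrays fitted alone. Klhl41, a stabiliser of sarcomere proteins, rose from 8.97, 8.57 and 8.87 to 10.2, 10.56, 10.01 and 10.13 (2.68-fold, adjusted p 0.000154), and Uchl1, a deubiquitinase best known from neurons, 2.82-fold (adjusted p 0.0102).

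Chromatin and histone factors had 19 of 43 higher (44.2%) and 6 lower, 3 without basal array 2 or with the wild-type arrays fitted alone (median 0.40, 0.24 to 0.47 over the alternatives). Class II histone deacetylases, known as repressors of hypertrophic genes, include Hdac5, which read 9.34, 9.33 and 9.37 in the basal arrays and 8.53, 8.43, 7.92 and 7.93 in the TAC arrays, 2.21-fold lower (adjusted p 0.00013). Hdac4 fell 1.96-fold (adjusted p 0.00241). Uhrf1, which maintains DNA methylation in replicating cells, rose from 4.36, 4.21 and 4.47 to 5.07, 5.94, 7.94 and 7.18, at least 4.55-fold (adjusted p 0.00343). The p53 targets and apoptosis genes had 17 of 36 higher and 7 lower, the latter 3 without basal array 2 (median 0.36, 0.23 to 0.44 over the alternatives). Btg1, an antiproliferative gene, rose from 8.46, 8.52 and 8.33 to 9.96, 10.15, 11.14 and 10.28 (3.85-fold, adjusted p 0.000114), and Apaf1, the apoptosome core, 2.9-fold (adjusted p 0.000616). Cdkn1a, the cell cycle inhibitor p21, fell from 10.64, 10.91 and 11.26 to 10.31, 9.8, 10.06 and 10.51 (-0.77 ± 0.21, adjusted p 0.00828).

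DNA repair genes were called near the shares of all genes, 10 of 39 higher and 7 lower (median 0.18, 0.08 to 0.25 over the alternatives, 0.10 without TAC array 1 and 0.08 after quantile normalization). Msh6, of mismatch repair, rose from 6.06, 5.57 and 5.78 to 6.77, 6.72, 7.56 and 7.25 (2.41-fold, adjusted p 0.000383), and Mgmt, which repairs alkylated guanine, fell from 7.91, 7.89 and 7.94 to 7.36, 7.26, 6.8 and 6.95 (-0.82 ± 0.14, adjusted p 0.000603). The E2F motif, searched as TTTCCCGC, TTTGGCGC, TTTCGCGC and TTTGCCGC on both strands, was in 6 of 34 DNA repair genes with a window (17.6%), 2 of 22 nucleotide synthesis genes and 2.6% of all genes. Of the 6 DNA repair genes, Xrcc6, Lig1 and Msh6 were higher after TAC, and the call of Lig1 was lost without basal array 1 and with the wild-type arrays fitted alone. Neither of the 2 nucleotide synthesis genes with the motif was called. Xrcc6, of the Ku heterodimer that binds broken ends, read 7.62, 7.72 and 7.67 in the basal and 8.08, 7.96, 8.62 and 8.22 in the TAC arrays (adjusted p 0.00713), named for the motif. Its stretch (chr15:82016303-82016350, plus strand) has the match in capitals.
Xrcc6: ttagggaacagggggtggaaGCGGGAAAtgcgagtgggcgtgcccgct

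Markers of the other cell types of the ventricle were examined next. Of 20 endothelial markers 12 were lower (60%) and 1 higher, 4 with array weights (median -0.43, -0.61 to -0.36 over the alternatives). Aqp1, the water channel, read 12.55, 12.69 and 12.51 in the basal arrays and 11.12, 11.28, 10.0 and 10.82 in the TAC arrays, 3.43-fold lower (adjusted p 0.000596). Tie1 fell 2.03-fold (adjusted p 0.000244) and Eng, a TGF-beta co-receptor, 1.82-fold (adjusted p 0.000286), whereas Cdh5, the junctional cadherin that defines endothelium, read 8.78, 8.67 and 8.8 and 8.71, 8.67, 8.64 and 8.41 (adjusted p 0.305). Kdr, the main VEGF receptor, also did not pass, with 9.52, 9.1 and 9.49 in the basal and 9.61, 10.11, 9.34 and 9.11 in the TAC arrays (adjusted p 0.473).

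Smooth muscle and pericyte markers had 5 of 18 higher and 5 lower (27.8% each), near the shares of all genes. Their median of 0.11 (-0.08 to 0.23 over the alternatives) became -0.08 after quantile normalization and -0.05 without TAC array 3. Smtn, of contractile smooth muscle, fell from 9.82, 9.9 and 9.9 to 8.6, 8.85, 8.53 and 8.3 (2.47-fold, adjusted p 4.38e-05), and Myh11, its myosin, also fell, with a difference of -0.96 (adjusted p 0.0102). Of the other defining markers, Pdgfrb, given above among receptors, went the other way and rose by 1.55 (adjusted p 0.000139 in limma's test). Rgs5, with a difference of -0.58, did not pass (adjusted p 0.085). Acta2 did not pass either, with 11.92, 11.74 and 11.57 in the basal and 12.08, 11.66, 12.83 and 12.48 in the TAC arrays (adjusted p 0.0529). Fibroblast markers other than collagens had 5 of 18 higher, 8 without TAC array 1, and 6 lower, 2 without basal array 1 and 3 with the wild-type arrays fitted alone or with array weights. Their median of -0.01 (-0.20 to 0.11 over the alternatives) became 0.07 after median centring. Mfap5, a microfibril protein, rose 2.78-fold (adjusted p 0.000704), and Htra3, a secreted protease, fell from 10.73, 9.66 and 10.26 to 9.59, 9.31, 7.57 and 8.21 (2.92-fold, adjusted p 0.00746). Tcf21, a defining fibroblast factor, read 8.39, 7.81 and 7.81 and 7.92, 8.23, 7.92 and 7.86 (adjusted p 0.917). Of the other defining fibroblast markers, Pdgfra rose by 0.54 (adjusted p 0.0065 in limma's test), a call lost with the mean of its probe sets. Dcn fell, with a difference of -0.57 (adjusted p 0.0205), and Ddr2 did not pass (adjusted p 0.99). The call of Dcn was lost without basal array 1 or 3, TAC array 3 or 4, with array weights and with the wild-type arrays fitted alone.

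Among nerve and Schwann cell markers 7 of 11 were lower and 1 higher (median -0.44, -0.51 to -0.35 over the alternatives). Dbh, which makes noradrenaline in sympathetic nerves, read 8.55, 8.56 and 8.84 in the basal arrays and 7.74, 7.56, 7.16 and 7.51 in the TAC arrays, 2.23-fold lower (adjusted p 7.70e-05). Sox10, the glial factor, fell from 7.5, 7.37 and 7.39 to 6.81, 6.79, 6.54 and 6.71 (-0.71 ± 0.14, adjusted p 0.00182). Of 9 lymphatic markers 1 passed, Pdpn, which other stromal cells also express, and it rose from 6.56, 7.53 and 6.42 to 8.1, 8.7, 9.47 and 9.26 (4.13-fold, adjusted p 0.000367). Prox1, the defining lymphatic factor, did not pass (adjusted p 0.115), and neither did the neutrophil gene S100a8, with 5.98, 7.05 and 7.06 in the basal and 6.46, 7.43, 8.59 and 8.48 in the TAC arrays (adjusted p 0.114). Of 25 T and NK cell markers listed 5 were above the filter, and 4 of these were lower, 1 to 3 when single arrays were left out and 1 after median centring. With the 1.5-fold requirement 0 were lower. Their mean level was 6.23 to 6.31 in the basal and 5.83 to 5.99 in the TAC arrays, near the filter level of 5.75. Of 7 mast and dendritic cell markers 4 were lower, 2 without basal array 2, and 1 with the 1.5-fold requirement. Their mean level was also near the filter, 6.19 to 6.36 in the basal and 5.84 to 6.00 in the TAC arrays. Of 4 B cell markers 1 passed, Ebf1, which fibroblasts and fat cells also express.

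**Figure D4:**
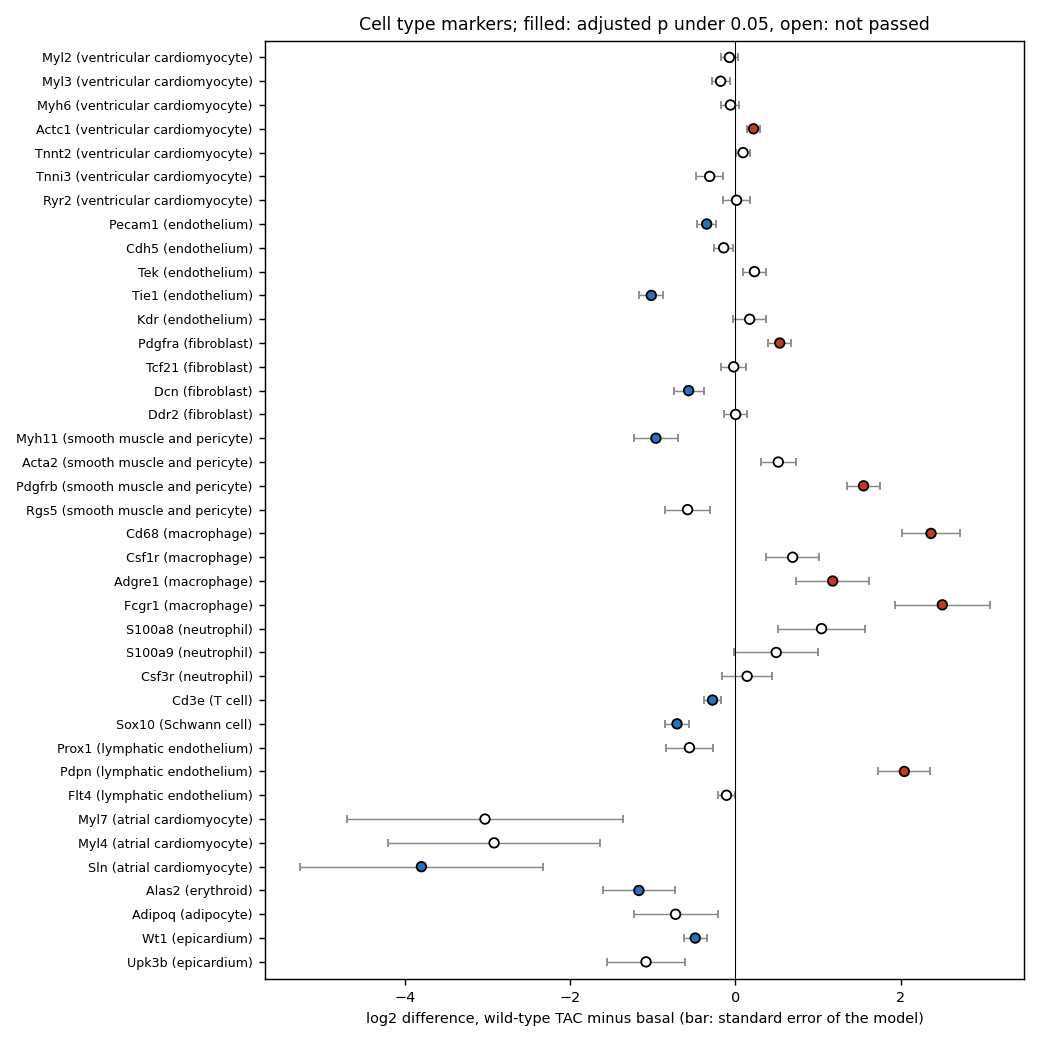
Log2 difference, wild-type TAC minus basal (horizontal axis), of each measured cell type marker, with the standard error of the limma model as a bar. Red and blue points passed an adjusted p of 0.05 as higher or lower and open points did not, and the atrial genes Myl7, Myl4 and Sln have the widest bars, with SE of 1.68, 1.29 and 1.47.

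The change in wild-type hearts was last set beside that in Hsp22 knockout hearts, which had their own basal arrays. The difference between the 2 changes passed an adjusted p of 0.05 in limma's test for 0 of 12260 genes (0.00%), while 952 (7.77%) had an unadjusted p under 0.05. With array weights 166 genes passed, without wild-type TAC array 1 the count was 1, and without wild-type TAC array 4 it was 8. Among the named genes the smallest unadjusted p values belonged to Slc25a33, with a change of -1.53 in wild-type and -0.60 in knockout hearts (unadjusted p 0.00209), and Nrp1, with 1.13 and 0.37 (unadjusted p 0.00211). Bmp4 changed by -0.90 in wild-type and -0.00 in knockout hearts, a difference of 0.89 ± 0.25 (unadjusted p 0.00346). None of these passed after adjustment, so the wild-type values above were not shown to be particular to wild-type hearts. For the ER translocation list the median change was 0.73 in wild-type and 0.79 in knockout hearts, for ribosome biogenesis 0.66 and 0.56, and for endothelial markers -0.43 and -0.43. Other lists were less alike, with 0.93 and 1.64 for recruited monocyte and macrophage genes. The medians were 0.13 and 0.48 for amino acid transporters and 0.13 and -0.14 for basement membrane genes. Of nerve and Schwann cell markers 7 were lower in wild-type and 3 in knockout hearts. List medians were not tested between genotypes.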

How the data were processed

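Left ventricular RNA was measured on mouse expression arrays, 1 sample per array. The authors deposited log2 values per probe set, made with RMA per the submitters' processing notes; neither its version nor which arrays were normalized in 1 set is given in the sources used here. RMA gives no detection call, and the number of arrays limits the precision. No column was left out as belonging to another series. Of 45101 probe sets, 34958 were paired with 1 gene symbol in GEO's platform annotation, 932 with several and 9211 with none; symbols were updated by gene number through RefSeq. Control probe sets and those not above the table's median of 5.75 in at least 3 arrays were left out, which kept 24525, and 1 probe set per gene was used, the one with the highest mean over all 14 arrays. A 4-group model over all 14 arrays (10 residual and 3.43 prior degrees of freedom) was fitted with limma 3.58.1 in R 4.3.3, with Benjamini-Hochberg adjustment over 12260 genes and a threshold of 0.05, and was tested on simulated data. Fits with other filters, probe set rules, scalings, priors, weights, a replicate block and each wild-type array left out were alternatives.

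The genes named were, per list, the 3 with the largest rise and the 3 with the largest fall among called genes whose arrays did not overlap, places 13 to 24 by size in each direction over all genes, and every measured defining marker; Hspb8 and the genes shown for a promoter motif fall outside this rule. The 50 gene lists and this rule were chosen with earlier results of these data known. The words rose and fell are used for genes past the threshold.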

Additional observations from a re-analysis of the deposited data

Results flagged for a closer look

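In 9 genes named here, 1 of the 4 TAC wild-type arrays stood apart from the other three by more than the critical value of Dixon's test. Chance alone marks about 1 in 20 such groups, and 296 named genes and 50 gene lists were examined. The 9 flags are a smaller share than that. Most named genes were chosen as called and without overlap of the groups, so that rate need not hold for them. No conclusion was drawn from the number of flags. TAC array 3 was the high array for 3 genes of macrophages and inflammation: Ms4a7 at 10.8 against 7.75 to 8.21 in the other TAC arrays, Adgre1 at 10.46 against 8.02 to 8.4, and Casp1, which processes interleukin 1, at 7.95 against 6.09 to 6.39. It was the low array for Nf2, an upstream activator of the Hippo kinases, at 9.06 against 9.53 to 9.62. The call of Adgre1 was lost without basal array 1, 2 or 3, after quantile normalization and with the wild-type arrays fitted alone. That of Nf2 was lost without basal array 2 or 3 or TAC array 3, after median centring and with the wild-type arrays fitted alone.

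TAC array 1 was the low array for Vcan, a large proteoglycan, at 8.13 against 9.16 to 9.32, and the high array for Prune2 at 12.56 against 12.06 to 12.11. TAC array 4 was low for Bmp10 at 5.84 against 6.19 to 6.25 and for Casp12 at 8.02 against 8.36 to 8.41. TAC array 2 was high for the fibroblast gene Tcf21 at 8.23 against 7.86 to 7.92. For Prune2 it was basal array 1, at 6.16 against 11.13 and 10.81, that set the size of the difference, which was 2.84 over all arrays and 1.23 without that array.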

How the results depend on the processing

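Of 296 named genes 273 passed the threshold, 189 of these kept the call in every alternative run, and 182 also moved by less than 1.5-fold without any 1 wild-type array. Of the 6214 calls, 3521 met a 1.5-fold requirement, of which 1302 were lower. The stricter filter tested 7653 genes and gave 4126 calls, 1476 of them lower, and 4060 of these were among the 6214. With no filter 4769 genes were lower. Leaving out 1 wild-type array gave 4808 to 6842 calls, 2584 to 3607 of them higher and 2224 to 3235 lower. The wild-type arrays fitted alone gave 4831 calls. For the difference between genotypes, array weights gave 166 calls, and leaving out 1 wild-type array gave 0 to 8. No knockout array was left out, so that range does not cover them. Directions turned with the mean of probe sets for Eif3i (0.338), Prkaca (-0.17), Ldb3 (0.047) and Ryr2 (-0.55), and without the probe set classes that can cross-hybridise for Prkaca (-1.02) and Fech (0.237), and the cause was not tested. The calls of Eif3i and Ldb3 were also lost without several single wild-type arrays. The replicate numbers did not pair the samples, with correlations of 0.0698, -0.0526 and 0.0187 between deviations of same-numbered wild-type arrays, and the replicate block gave 5654 calls. Values near the filter level of 5.75 limit the size of a change that can be seen in dim genes.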

Other observations

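Further genes at places 13 to 24 that kept their call in every alternative included Postn, a matrix protein of activated fibroblasts, with 9.81, 9.76 and 9.6 in the basal and 11.64, 12.41, 13.18 and 13.29 in the TAC arrays (7.5-fold higher, adjusted p 7.52e-05 in limma's test). Fbln1, another matrix protein, fell from 11.03, 10.46 and 10.99 to 9.6, 9.85, 7.94 and 7.89 (4.02-fold, adjusted p 0.00261). Smc2, a condensin subunit of dividing cells, rose from 5.32, 4.48 and 5.12 to 6.46, 7.04, 9.25 and 8.22, at least 6.82-fold (adjusted p 0.000857), and its TAC arrays spanned 2.79.

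In 2 muscle genes there was no overlap between the groups but the call was lost without single arrays. Kcnip2, the subunit that sets the transient outward potassium current, read 10.84, 11.11 and 10.8 in the basal and 10.14, 9.99, 7.59 and 7.85 in the TAC arrays, 4.07-fold lower (adjusted p 0.0308). Dhrs7c, a dehydrogenase of the sarcoplasmic reticulum, read 11.26, 10.85 and 11.09 and 10.45, 10.14, 7.42 and 8.13 (adjusted p 0.0284). Both calls were lost with array weights and without any 1 of basal arrays 1, 2 and 3 or TAC arrays 3 and 4, and that of Dhrs7c also with the wild-type arrays fitted alone. In both genes TAC arrays 3 and 4 lay well below TAC arrays 1 and 2.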
